A study of Mus musculus with 8 samples.

Results

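The genes described here are 180 expressed solute carrier genes of mouse Th17 cells. They were chosen by 2 criteria, a single platform symbol that starts with Slc and a brightest probe set that reached the median of all deposited values, a log2 signal of 7.85, on 2 or more of 8 arrays. The platform named 379 genes with an Slc symbol, of which 192 reached this level and 187 did not. Among the 379, 13 carriers, mainly of glucose, lactate and amino acids, were left out by name, 12 of which reached the level, and 180 of the 11128 genes tested remained. The level of each gene therefore chose it, and the levels themselves are given as a description. Of the 180 genes, 154 reached the level on all 8 arrays, and 26 lay below it on some array. Slc4a3, Slc6a20a and Slc28a2b lay just inside, with a second-highest signal of 7.88, 7.89 and 7.89, and Slc35e4, Slc39a5 and Slc13a4 lay just outside with 7.84, 7.84 and 7.82.

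Transcripts were measured on 8 arrays in 4 groups of 2 biological replicates. RORγt-deficient cells, from mice labelled RORgt (-/-), had their own RORγt wild type, and SRC-3-deficient cells, from mice labelled SRC-3 (f/f) with no Cre driver named, had their own SRC-3 wild type. All arrays are labelled Th17 cells: naive CD4+ T cells activated through CD3 and CD28 with antibodies and cultured with IL-1, IL-6 and IL-23, a mixture that gives a pathogenic form of this T helper cell. The age and sex of the mice, and whether the replicates came from separate mice, are not stated, so p-values measure only the spread between these samples. RORγt is the nuclear receptor that directs Th17 differentiation, and SRC-3 (gene Ncoa3) is a coactivator that nuclear receptors recruit.

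Solute carriers are membrane proteins that move small molecules and ions down a gradient or against one by coupling to a second ion, without splitting ATP. T cells that divide after activation import amino acids, nucleosides, vitamins and metals through them, exchange metabolites across the inner mitochondrial membrane through the Slc25 family, and feed glycosylation in the Golgi through the Slc35 family. The 180 genes were sorted by family into 12 classes of cargo or site and 1 class of 4 genes that carry an Slc symbol without encoding a carrier.

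Ncoa3 had log2 signals of 11.15 and 10.97 on the SRC-3-deficient arrays, against 11.76 and 11.53 on the SRC-3 wild-type arrays, and whether this probe set covers the deleted part is not known here. Xist, the RNA that silences an X chromosome in female cells, read 6.37 and 6.08 on the RORγt-deficient arrays, against 12.55 and 12.76 on the RORγt wild-type arrays, so Xist level and genotype cannot be told apart in that comparison. In the other comparison it read 7.10 and 13.60 on the SRC-3-deficient arrays, against 13.65 and 13.52 on the SRC-3 wild-type arrays. None of the 7 X-linked genes among the 180 passed the threshold used below in the RORγt comparison, beside 19.4% of all genes tested. So few genes cannot show whether the Xist difference bears on the other genes. The 6 markers of CD4 T cells that were measured, of 9 listed, reached the level, with a mean log2 signal between 12.57 and 12.96 on every array. Of 4 NK cell markers only Klrd1 reached it, at 8.92 and 8.61 on the RORγt-deficient arrays, against 7.01 and 6.71 on the RORγt wild-type arrays. The other NK markers, Ncr1, Klrb1c and Eomes, stayed below it on every array, and the mean of the 4 was 6.54 to 6.67 on the RORγt-deficient arrays, against 6.08 to 6.11 on the RORγt wild-type arrays. Cd8a or Cd8b1, B cell, myeloid and dendritic cell markers reached the level in 1 of 2, 1 of 4, 1 of 6 and 0 of 4 cases. The mean of the myeloid list was 6.956 to 7.005 on the RORγt-deficient arrays, against 7.10 to 7.12 on the RORγt wild-type arrays, and the part of these cells in the results below was not tested.

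Over the 8 arrays, the median log2 signal ran from 9.52 to 9.65 for the 180 solute carrier genes and from 7.76 to 7.93 for the whole table. Replicates correlated across genes with r between 0.989 and 0.997. The median SD of a solute carrier gene between replicates was 0.05 in both RORγt groups, 0.06 in SRC-3-deficient cells and 0.07 in SRC-3 wild-type cells. How many arrays there were, 2 in each group, sets the precision of every value.

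Without RORγt, 43 of the 180 solute carrier genes passed an adjusted p of 0.05 in limma, a linear model fitted across all genes. Of these, 21 were higher and 22 lower than in RORγt wild-type cells. The share, 23.9%, stood beside 19.4% of all 11128 genes tested, with 11.7% against 10% higher and 12.2% against 9.37% lower. These 180 genes thus changed about as often as genes at large. They leave out 12 carriers that reached the level, of which 8, or 66.7%, fell and none rose without RORγt, beside 19.4% of all genes. Those carriers were removed by name with their values known. The median log2 fold change was −0.01 for the solute carriers and 0.00 for all genes, and the median size of a change was 0.15 and 0.13. The 2 arrays of each group did not overlap for 137 of the 180, or 76.1%, beside 70% of all genes tested. All 43 genes that passed were among them, so a lack of overlap adds nothing to a call. In bulk RNA, fewer cells of a type and less RNA per cell cannot be told apart.

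The changes were small. Among the 43 genes the absolute log2 fold change ran from 0.21 to 1.06, 7 changed at least 1.5-fold, and Slc1a1 alone changed 2-fold or more. Slc15a2, a carrier of dipeptides and tripeptides, was the only gene with a change of 1.5-fold or more that did not pass. It read 6.21 and 8.85 on the RORγt-deficient arrays, against 7.84 and 9.25 on the RORγt wild-type arrays, so the groups overlapped and the replicates lay further apart than the groups (log2 fold change −1.01, SE 0.77, limma adjusted p = 0.401). Without RORγt-deficient replicate 1 its difference was 0.30, of the opposite sign. Among the 43 genes, both RORγt wild-type arrays lay below the level of 7.85 in Slc1a1, Slc14a1 and Slc25a27, and both RORγt-deficient arrays in Slc37a2, so these folds rest on a low signal on one side. Of the 3 genes that reached the level in 1 group alone, Slc14a1 (RORγt-deficient), which could enter only by a difference between groups, is among the 43, and Slc34a3 (RORγt wild type) and Slc45a3 (SRC-3 wild type) are not. Slc1a1 reached the level on the 4 deficient arrays alone, so it too entered only through groups where it was higher.

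Most single calls rested on all 4 RORγt arrays. Without 1 array the fit assumes that the lone replicate varies like the other groups, and it retained 14 of the 43 calls without RORγt wild-type replicate 1, 7 without RORγt wild-type replicate 2, 11 without RORγt-deficient replicate 1 and 18 without RORγt-deficient replicate 2. The directions did not change. A call that held could lie close to the threshold, as that of Slc39a6 did without RORγt wild-type replicate 2. The 7 that held in each setting tried were Slc1a1, Slc6a6, Slc16a6, Slc22a15, Slc22a17, Slc39a1 and Slc39a6. Slc28a2 and Slc35f5 missed the threshold only without RORγt wild-type replicate 2 (limma adjusted p = 0.0533 and 0.0556), and Slc16a13, Slc20a1, Slc25a37, Slc29a2 and Slc39a14 missed it without that array or RORγt-deficient replicate 1 (0.0513 to 0.0699). A further 6 missed it without any 1 of 3 arrays (0.0523 to 0.193) and 23 without any 1 of the 4 (0.0507 to 0.266). These ranges are given again per class below.

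**Figure D1:**
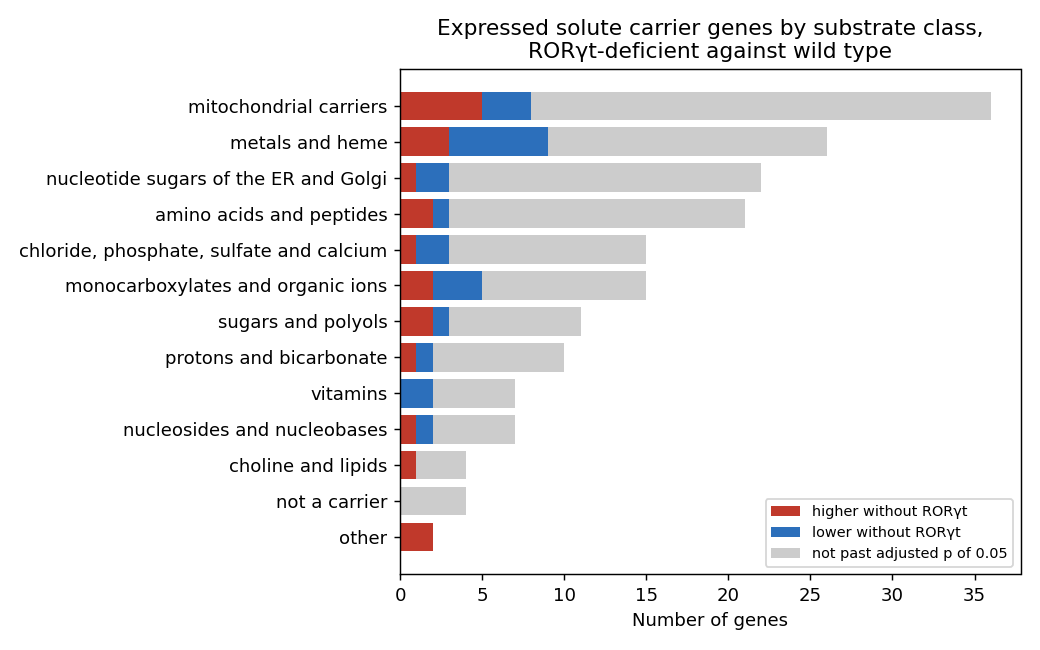
Number of expressed solute carrier genes in each class of cargo or site (horizontal bars), divided into genes higher without RORγt, lower without RORγt and not past an adjusted p of 0.05 in limma. Mitochondrial carriers, with 36 genes, held 5 higher and 3 lower, and metals and heme, with 26 genes, held 3 higher and 6 lower.

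The metal and heme carriers had the most genes past the threshold, 9 of 26, or 34.6% beside 19.4% of all genes tested, with 3 higher and 6 lower and a median log2 fold change of −0.02. Most were zinc carriers. Proteins of the Slc39 family, also called ZIP, bring zinc into the cytosol from outside the cell or from organelles, and those of the Slc30 family, also called ZnT, move it out of the cytosol. Of 12 Slc39 genes, 4 fell and 2 rose without RORγt, and of 7 Slc30 genes, 1 fell and none rose. The share of Slc39 genes past the threshold was 50%, beside 19.4% of all genes tested, with a median log2 fold change of −0.12, in a family that was singled out after its values were seen.

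Slc39a6 (ZIP6), a plasma membrane zinc importer, read 9.92 and 10.28 on the RORγt-deficient arrays, against 10.88 and 10.97 on the RORγt wild-type arrays. Both deficient arrays lay below both wild-type arrays, and the level fell to 0.564 of wild type (log2 fold change −0.83, SE 0.12, limma adjusted p = 0.00542). Slc39a14 (ZIP14), which carries zinc, iron and manganese, read 9.995 and 10.18 on the RORγt-deficient arrays, against 10.74 and 10.75 on the RORγt wild-type arrays, a fall to 0.635 (log2 fold change −0.66, SE 0.10, limma adjusted p = 0.00617). Slc39a10, another importer at the plasma membrane, read 9.35 and 9.34 without RORγt, against 9.65 and 9.68 in RORγt wild type (log2 fold change −0.32, SE 0.09, limma adjusted p = 0.0396). Slc39a7, which releases zinc from the endoplasmic reticulum, read 10.24 and 10.21 without RORγt, against 10.47 and 10.47 in RORγt wild type (log2 fold change −0.25, SE 0.06, limma adjusted p = 0.0294). In all 4 genes the groups lay apart, as in each of the 43 genes that passed.

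Slc39a1 and Slc39a8 moved the other way. Slc39a1 (ZIP1), a plasma membrane importer, read 10.996 and 11.07 on the RORγt-deficient arrays, against 10.54 and 10.53 on the RORγt wild-type arrays (fold 1.41, log2 fold change 0.49, SE 0.06, limma adjusted p = 0.00301). A further probe set of the gene gave the same log2 fold change, 0.49. Slc39a8 (ZIP8), which carries zinc and manganese, read 11.34 and 11.29 without RORγt, against 10.94 and 10.96 in RORγt wild type (fold 1.29, log2 fold change 0.37, SE 0.09, limma adjusted p = 0.03). Slc30a5, which loads zinc into the secretory pathway, read 10.41 and 10.50 without RORγt, against 10.72 and 10.69 in RORγt wild type (log2 fold change −0.25, limma adjusted p = 0.0317). Slc30a1, the zinc exporter of the plasma membrane, read 8.50 and 8.41 without RORγt, against 8.42 and 8.44 in RORγt wild type, and did not pass (log2 fold change 0.03, limma adjusted p = 0.876).

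**Figure D2:**
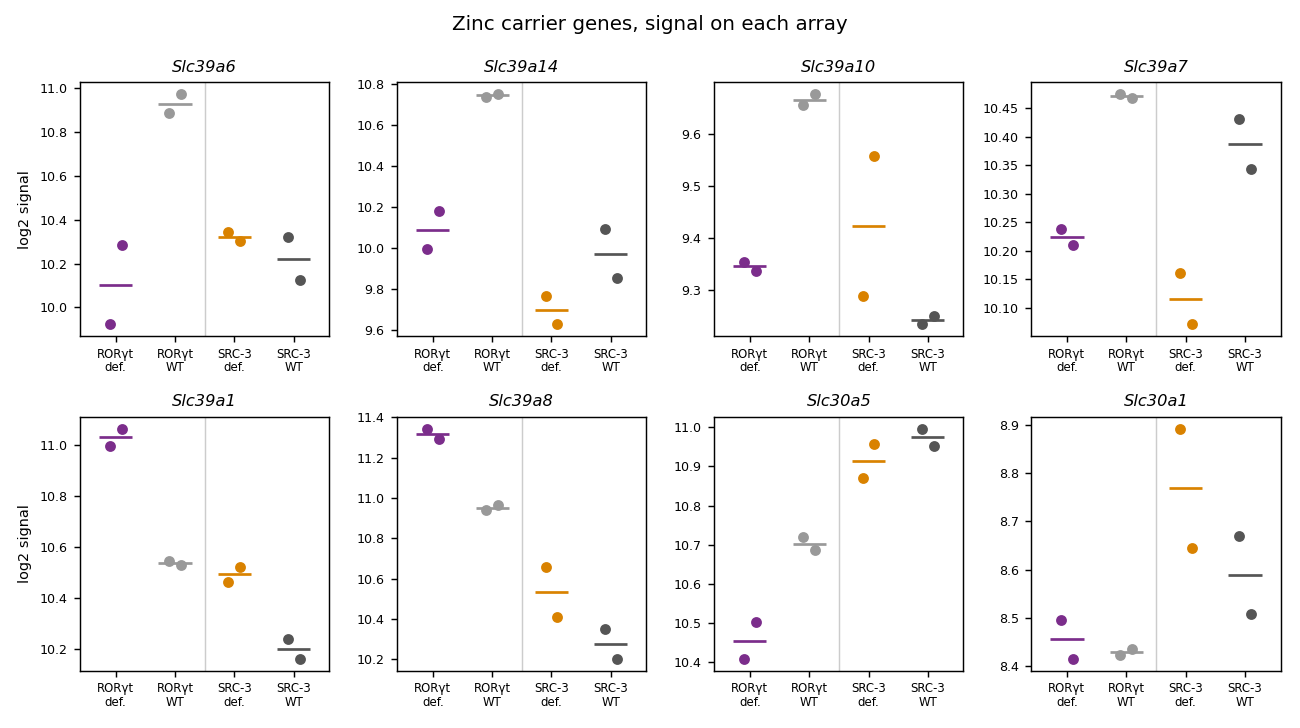
Log2 signal of 8 zinc carrier genes on each array, as points, with the group mean as a line, in RORγt-deficient, RORγt wild-type, SRC-3-deficient and SRC-3 wild-type cells, with a separate vertical scale for each gene. The RORγt-deficient points lie below their wild type in Slc39a6, Slc39a14, Slc39a10, Slc39a7 and Slc30a5, above it in Slc39a1 and Slc39a8, and around it in Slc30a1.

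Outside the zinc families, Slc41a2, a magnesium carrier, read 8.67 and 8.81 without RORγt, against 9.36 and 9.33 in RORγt wild type (fold 0.659, log2 fold change −0.60, limma adjusted p = 0.0172). Slc48a1, which carries heme out of lysosomes and endosomes, read 12.30 and 12.38 without RORγt, against 12.10 and 12.16 in RORγt wild type (fold 1.16, limma adjusted p = 0.0403). The other 17 genes of the class did not pass. The largest change among these 17 was −0.50 on the log2 scale, in Slc39a4, an importer of dietary zinc in the gut (limma adjusted p = 0.0801). The calls of Slc39a1 and Slc39a6 held without each array in turn, while each of the other 7 missed the threshold without at least 1 RORγt array, at limma adjusted p between 0.0513 and 0.206.

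Of 36 mitochondrial carriers of the Slc25 family, 5 rose and 3 fell without RORγt, or 22.2% beside 19.4% of all genes tested. The median log2 fold change was 0.07. Slc25a32, which brings folate and FAD into mitochondria, read 9.26 and 9.38 without RORγt, against 9.80 and 9.84 in RORγt wild type (fold 0.707, log2 fold change −0.50, SE 0.11, limma adjusted p = 0.0176). Slc25a37 (mitoferrin 1), which imports iron for heme and iron-sulfur clusters, read 9.38 and 9.46 without RORγt, against 9.80 and 9.83 in RORγt wild type (fold 0.76, log2 fold change −0.40, SE 0.06, limma adjusted p = 0.00604). The third lower gene was Slc25a47, known from liver mitochondria (7.92 and 7.84 without RORγt, against 8.16 and 8.16 in RORγt wild type). Both arrays without RORγt lay below both wild-type arrays in each of these 3 genes, and the groups lay apart in all 43 genes that passed.

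The 5 higher ones included Slc25a23, which exchanges ATP-magnesium for phosphate. It read 10.16 and 10.35 without RORγt, against 9.77 and 9.86 in RORγt wild type (fold 1.36, log2 fold change 0.44, SE 0.09, limma adjusted p = 0.0133). Slc25a40, a mitochondrial glutathione carrier, read 8.83 and 8.77 without RORγt, against 8.31 and 8.43 in RORγt wild type (fold 1.35, log2 fold change 0.43, SE 0.10, limma adjusted p = 0.0275), and a further probe set gave a log2 fold change of 0.44. Slc25a35, Slc25a45 and Slc25a27, the last also named UCP4, had log2 fold changes of 0.50, 0.36 and 0.29 (limma adjusted p = 0.0383, 0.0465 and 0.0393). Slc25a5, an ADP/ATP exchanger, read 13.60 and 13.57 without RORγt, against 13.62 and 13.60 in RORγt wild type, a log2 fold change of −0.02 that did not pass. Each of the 8 calls missed the threshold without at least 1 RORγt array, at limma adjusted p between 0.0507 and 0.238.

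Among 21 amino acid and peptide carriers, 2 rose and 1 fell without RORγt, or 14.3% beside 19.4% of all genes tested. Slc1a1 (EAAT3), which imports glutamate, aspartate and cysteine, read 7.999 and 8.39 on the RORγt-deficient arrays, against 7.12 and 7.16 on the RORγt wild-type arrays. It lay below the level of 7.85 in RORγt wild type and above it without RORγt (fold 2.08, log2 fold change 1.06, SE 0.12, limma adjusted p = 0.00221). The SRC-3 wild-type arrays lay below the level too, so Slc1a1 was counted as expressed only through deficient arrays. Slc6a6, the taurine importer, read 11.58 and 11.56 without RORγt, against 12.10 and 12.02 in RORγt wild type (fold 0.713, log2 fold change −0.49, SE 0.07, limma adjusted p = 0.00423). Slc36a4, an amino acid carrier with high affinity for proline and tryptophan, read 10.22 and 10.29 without RORγt, against 9.94 and 9.95 in RORγt wild type (fold 1.24, limma adjusted p = 0.0213). Slc38a1, a sodium-coupled glutamine importer, read 12.09 and 12.09 without RORγt, against 12.21 and 12.21 in RORγt wild type, and did not pass (limma adjusted p = 0.161). Slc7a6, which exchanges cationic for neutral amino acids, had a −0.28 log2 fold change (limma adjusted p = 0.0582). Slc7a6os, which lies opposite it and encodes no carrier, had one of −0.21 (limma adjusted p = 0.0548). Whether the array signals of these overlapping genes are fully separate was not tested. The call of Slc36a4 was lost without any 1 of the 4 RORγt arrays, at limma adjusted p between 0.0833 and 0.118.

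The vitamin and nucleoside carriers hold the importers of folate, thiamine and nucleosides. Of 7 vitamin carriers, 2 fell and none rose, or 28.6% beside 19.4% of all genes tested. The median log2 fold change was −0.17. Slc19a1, the reduced folate carrier, read 10.95 and 10.94 without RORγt, against 11.26 and 11.28 in RORγt wild type (fold 0.799, log2 fold change −0.32, SE 0.06, limma adjusted p = 0.00911), and a further probe set gave −0.60. Slc19a2, a thiamine importer of the same family, read 10.26 and 10.36 without RORγt, against 10.89 and 11.02 in RORγt wild type (fold 0.638, log2 fold change −0.65, SE 0.13, limma adjusted p = 0.0165). Slc46a1, the proton-coupled folate carrier, had a log2 fold change of −0.27 and did not pass (limma adjusted p = 0.0986). Both vitamin calls were lost without any 1 of the 4 RORγt arrays, at limma adjusted p between 0.0556 and 0.11.

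Of 7 nucleoside and nucleobase carriers, 1 fell and 1 rose, or 28.6% beside 19.4% of all genes tested. Slc29a2, which lets nucleosides equilibrate across the plasma membrane, read 8.67 and 8.75 without RORγt, against 9.31 and 9.35 in RORγt wild type (fold 0.65, log2 fold change −0.62, SE 0.09, limma adjusted p = 0.00595). Slc28a2, which imports purine nucleosides with sodium, read 9.59 and 9.63 without RORγt, against 9.27 and 9.22 in RORγt wild type (fold 1.29, log2 fold change 0.37, SE 0.06, limma adjusted p = 0.0061). Its close copy Slc28a2b had a 0.17 log2 fold change (limma adjusted p = 0.209), and the arrays may not tell the copies apart. Slc43a3, a purine nucleobase carrier, differed by 0.02. The Slc29a2 and Slc28a2 calls were lost without RORγt wild-type replicate 2, and that of Slc29a2 also without RORγt-deficient replicate 1, at limma adjusted p between 0.0518 and 0.0533.

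**Figure D3:**
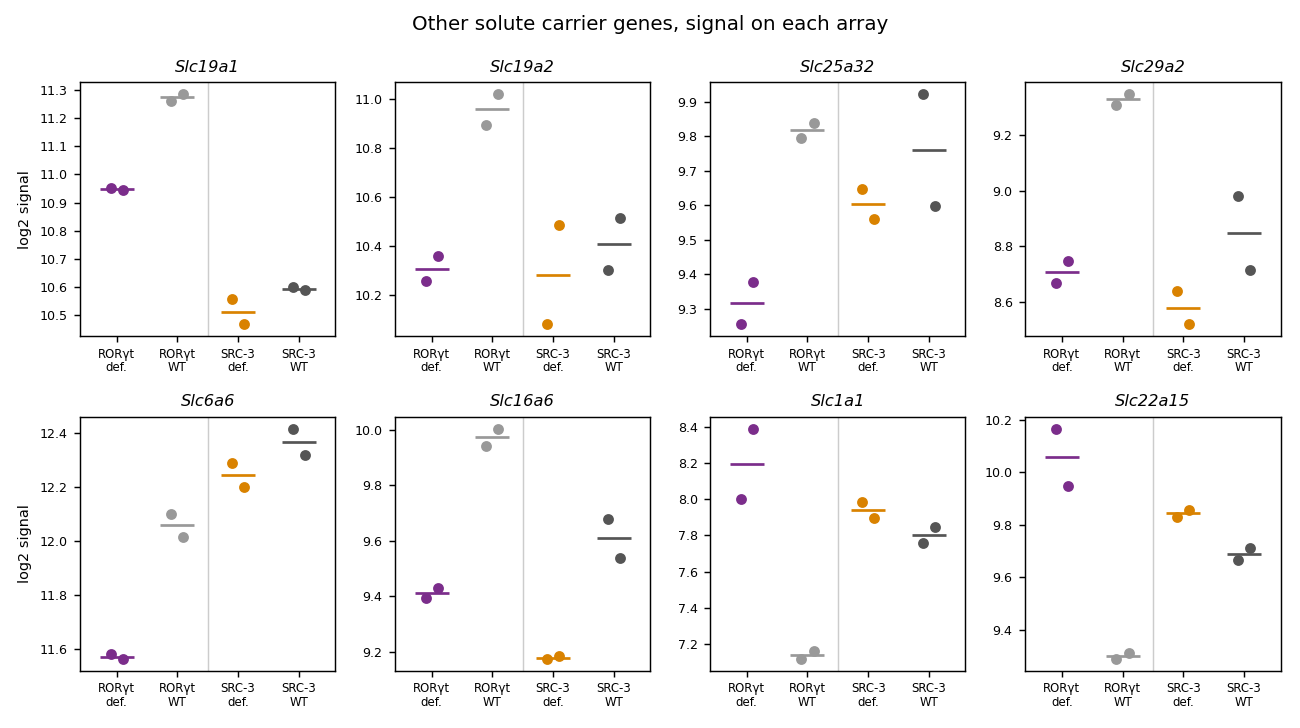
Log2 signal of 8 further solute carrier genes on each array, as points, with the group mean as a line, in RORγt-deficient, RORγt wild-type, SRC-3-deficient and SRC-3 wild-type cells, with a separate vertical scale for each gene. Slc19a1, Slc19a2, Slc25a32, Slc29a2, Slc6a6 and Slc16a6 were lower and Slc1a1 and Slc22a15 higher without RORγt. The RORγt groups did not overlap, as in all 43 genes that passed.

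Among 15 carriers of monocarboxylates and organic ions, 2 rose and 3 fell without RORγt, or 33.3% beside 19.4% of all genes tested. Slc22a15, a carrier of zwitterions, had the smallest adjusted p of the 180 genes. It read 10.17 and 9.95 on the RORγt-deficient arrays, against 9.29 and 9.31 on the RORγt wild-type arrays (fold 1.69, log2 fold change 0.76, SE 0.08, limma adjusted p = 0.00173). Slc22a17, a receptor for the siderophore-binding protein lipocalin 2, read 9.01 and 9.05 without RORγt, against 8.65 and 8.56 in RORγt wild type (fold 1.34, log2 fold change 0.42, SE 0.06, limma adjusted p = 0.00473). Slc16a6, a monocarboxylate carrier that exports ketone bodies from liver in zebrafish, read 9.39 and 9.43 without RORγt, against 9.94 and 10.004 in RORγt wild type (fold 0.678, log2 fold change −0.56, SE 0.07, limma adjusted p = 0.00265). Its family member Slc16a13 read 9.33 and 9.39 without RORγt, against 9.67 and 9.73 in RORγt wild type (fold 0.787, limma adjusted p = 0.00767). Slc22a13, a nicotinate and urate carrier in humans, had a −0.32 log2 fold change (limma adjusted p = 0.0185), and its near copy Slc22a13b one of −0.02. Slco3a1, an organic anion carrier, differed by −0.08. The calls of Slc16a13 and Slc22a13 missed the threshold without at least 1 RORγt array, at limma adjusted p between 0.0549 and 0.134, and the other 3 held.

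The carriers of inorganic ions changed in both directions. Of 15 carriers of chloride, phosphate, sulfate and calcium, 1 rose and 2 fell without RORγt, or 20% beside 19.4% of all genes tested. Slc20a1, a sodium-coupled phosphate importer, read 10.68 and 10.72 without RORγt, against 11.04 and 11.10 in RORγt wild type (fold 0.774, log2 fold change −0.37, SE 0.06, limma adjusted p = 0.00822). Slc26a10 had a −0.40 log2 fold change (limma adjusted p = 0.0342), and Slc12a7, which exports potassium with chloride, one of 0.32 (limma adjusted p = 0.035). Slc24a3, which exchanges sodium for calcium and potassium, had a log2 fold change of 0.45 and did not pass (limma adjusted p = 0.0601). All 3 calls were lost without at least 1 RORγt array, at limma adjusted p between 0.0675 and 0.195.

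Of 10 carriers of protons and bicarbonate, Slc4a8, which exchanges chloride for bicarbonate driven by sodium, rose (log2 fold change 0.39, SE 0.10, limma adjusted p = 0.0347). Slc4a11 fell (−0.24, SE 0.07, limma adjusted p = 0.0488). The share of the class past the threshold was 20%, beside 19.4% of all genes tested. Slc9a9, an endosomal sodium/proton exchanger, had a log2 fold change of 0.54 and did not pass (limma adjusted p = 0.0555), and Slc9a8 of the Golgi differed by 0.08. The Slc4a8 and Slc4a11 calls were lost without at least 1 RORγt array, at limma adjusted p between 0.0912 and 0.266.

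Of 22 carriers of nucleotide sugars and related cargo of the endoplasmic reticulum and Golgi, 1 rose and 2 fell, with a median log2 fold change of −0.08. That is 13.6%, beside 19.4% of all genes tested. Slc35f5, whose cargo is unknown, read 8.74 and 8.85 without RORγt, against 8.27 and 8.19 in RORγt wild type (fold 1.48, log2 fold change 0.57, SE 0.09, limma adjusted p = 0.00641). Slc35c2, linked to fucosylation of Notch, read 10.36 and 10.41 without RORγt, against 10.71 and 10.70 in RORγt wild type (log2 fold change −0.32, limma adjusted p = 0.00946). Slc33a1, which brings acetyl-CoA into the endoplasmic reticulum, read 8.36 and 8.36 without RORγt, against 8.67 and 8.66 in RORγt wild type (log2 fold change −0.30, limma adjusted p = 0.0205). Slc35a4 differed by −0.12 and did not pass. The 3 calls were lost without at least 1 RORγt array, at limma adjusted p between 0.0556 and 0.114.

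Of 11 carriers of sugars and polyols, 2 rose and 1 fell, or 27.3% beside 19.4% of all genes tested. Slc37a2 and Slc37a1 both exchange glucose 6-phosphate for phosphate in the endoplasmic reticulum, and they moved in opposite directions. Slc37a2 read 7.40 and 7.64 without RORγt, against 8.09 and 7.95 in RORγt wild type (fold 0.705, log2 fold change −0.50, SE 0.10, limma adjusted p = 0.0158). Slc37a1 read 10.32 and 10.28 without RORγt, against 10.10 and 10.04 in RORγt wild type (fold 1.17, log2 fold change 0.23, SE 0.06, limma adjusted p = 0.0338). Slc2a9, a urate carrier, read 9.12 and 8.97 without RORγt, against 8.74 and 8.75 in RORγt wild type (fold 1.23, limma adjusted p = 0.0451). Slc50a1, a sugar carrier of the SWEET family, differed by 0.13 and did not pass. These 3 calls too were lost without at least 1 RORγt array, at limma adjusted p between 0.0603 and 0.257.

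In the small remaining classes, Slc44a2, a choline carrier, read 12.51 and 12.45 without RORγt, against 12.11 and 12.21 in RORγt wild type (fold 1.25, log2 fold change 0.32, SE 0.06, limma adjusted p = 0.0127). It was the only one of 4 choline and lipid carriers to pass, and it was lost without any 1 of the 4 RORγt arrays (limma adjusted p between 0.0508 and 0.101). Slc14a1, the urea carrier, read 7.96 and 8.22 without RORγt, against 7.76 and 7.71 in RORγt wild type (log2 fold change 0.36, limma adjusted p = 0.0276). Slc49a4 read 9.90 and 9.75 without RORγt, against 9.38 and 9.53 in RORγt wild type (log2 fold change 0.37, limma adjusted p = 0.0192). The calls of Slc14a1 and Slc49a4 were lost without any 1 of 3 RORγt arrays, at limma adjusted p between 0.0523 and 0.149. None of the 4 genes that encode no carrier passed, among them Slc9a3r1, a scaffold protein, at a log2 fold change of 0.16.

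**Figure D4:**
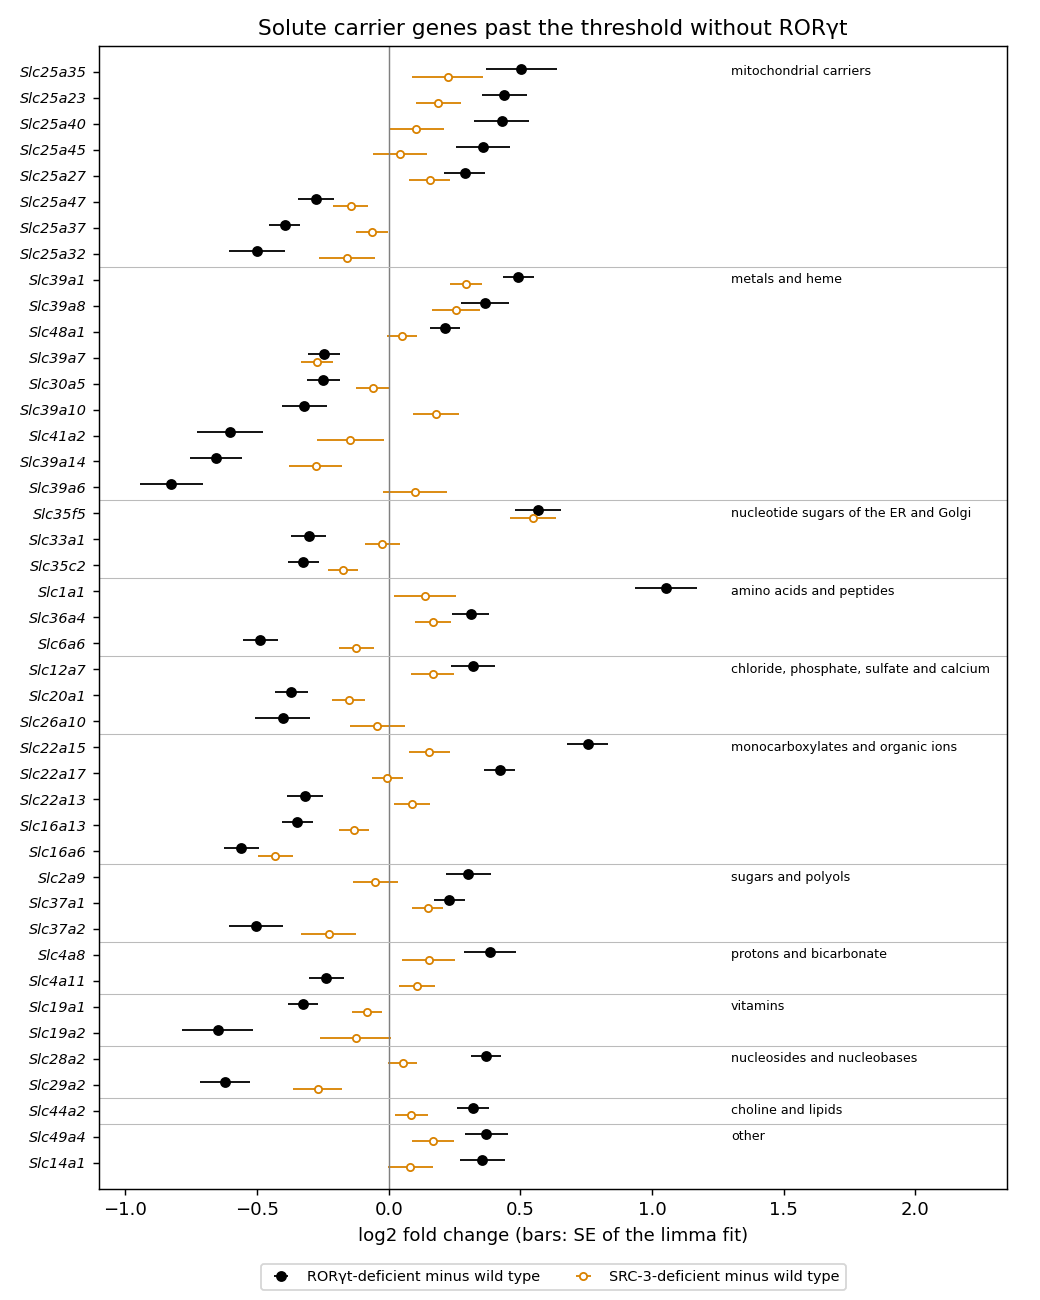
Log2 fold change of the 43 solute carrier genes past an adjusted p of 0.05 in the RORγt comparison, RORγt-deficient minus RORγt wild type (filled) and SRC-3-deficient minus SRC-3 wild type (open), with the SE of the limma fit as bars and genes grouped by class. The filled points span −0.83 for Slc39a6 to 1.06 for Slc1a1, and 37 of the 43 open points lie on the same side of 0 as the filled ones.

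Since RORγt is a DNA-binding receptor, the annotated starts of the genes were searched for AGGTCA, the half-site that ROR receptors bind after A- and T-rich bases, on both strands of 300-base windows. The RefSeq table of build GRCm38.p6 held windows for 143 of the 180 genes, and several starts of a gene count separately. AGGTCA was present in 27 of 192 windows of solute carrier genes, or 14.1%, beside 16.3% of all windows in the table. It was present in 3 of 18 windows of the genes lower without RORγt, 16.7%, and in 7 of 22 windows of those higher without RORγt, 31.8%, which came from 5 genes. The 7-letter form TAGGTCA, a subset of these matches, occurred in 4 of 192 windows, 2.08%, beside 2.61% of all windows. A match is a description of letters, not a site of binding. Stretches of 80 bases before an annotated start, on the strand of the gene, are shown for every gene among the 43 that had a match, at the match nearest to a start, with AGGTCA or its reverse complement TGACCT in capitals. The first 5 genes were higher and the last 2 lower without RORγt.
Slc39a8, chr3:135825128-135825207, plus strand: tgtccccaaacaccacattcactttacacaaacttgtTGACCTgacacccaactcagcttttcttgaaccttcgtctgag
Slc2a9, chr5:38483399-38483478, minus strand: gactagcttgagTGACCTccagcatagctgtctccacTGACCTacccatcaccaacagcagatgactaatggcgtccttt
Slc12a7, chr13:73763617-73763696, plus strand: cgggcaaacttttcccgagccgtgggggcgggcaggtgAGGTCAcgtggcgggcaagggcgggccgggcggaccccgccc
Slc25a45, chr19:5877735-5877814, plus strand: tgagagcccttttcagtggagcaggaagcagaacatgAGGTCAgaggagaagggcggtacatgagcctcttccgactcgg
Slc49a4, chr16:35769541-35769620, minus strand: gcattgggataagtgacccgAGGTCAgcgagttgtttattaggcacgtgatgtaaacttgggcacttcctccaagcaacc
Slc20a1, chr2:129198693-129198772, plus strand: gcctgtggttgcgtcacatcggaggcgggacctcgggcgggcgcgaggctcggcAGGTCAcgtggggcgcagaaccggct
Slc25a47, chr12:108850939-108851018, plus strand: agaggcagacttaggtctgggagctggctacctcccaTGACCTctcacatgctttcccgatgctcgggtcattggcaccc
Slc2a9 holds 2 matches in the stretch, and the one nearer the start is the only TAGGTCA in the windows of the 43 genes that the table holds.

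Without SRC-3, 0 of the 180 solute carrier genes passed an adjusted p of 0.05 in limma, beside 25 of all 11128 genes tested, or 0.225% (0.189% higher and 0.0359% lower). At an unadjusted p under 0.05 there were 26, or 14.4%, beside 12.5% of all genes tested. The 2 arrays of each SRC-3 group did not overlap for 80 of the 180, or 44.4%, beside 37.2% of all genes. The median log2 fold change was 0.02 for the solute carriers and 0.02 for all genes, and its median size 0.08 and 0.07. The 5 genes with the smallest p were Slc16a6, Slc35f5, Slc39a1, Slc39a7 and Slc2a4rg-ps.

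Slc16a6 read 9.17 and 9.18 on the SRC-3-deficient arrays, against 9.68 and 9.54 on the SRC-3 wild-type arrays (fold 0.742, log2 fold change −0.43, SE 0.07, limma adjusted p = 0.0566). Slc35f5 read 8.87 and 9.11 without SRC-3, against 8.43 and 8.45 in SRC-3 wild type (fold 1.46, log2 fold change 0.55, SE 0.09, limma adjusted p = 0.0621). Slc39a1 read 10.46 and 10.52 without SRC-3, against 10.24 and 10.16 in SRC-3 wild type (log2 fold change 0.29, limma adjusted p = 0.108). In these 3 genes, and in Slc39a7, the groups lay apart on the same side as in the RORγt comparison, but the differences did not pass. The SRC-3 groups lay apart in 37.2% of all genes tested. Slc39a7 read 10.16 and 10.07 without SRC-3, against 10.43 and 10.34 in SRC-3 wild type (log2 fold change −0.27, limma adjusted p = 0.133), and the pseudogene Slc2a4rg-ps had a log2 fold change of −0.22 (0.181). The largest SRC-3 change was that of Slc17a6, a vesicular glutamate carrier of neurons, which read 8.62 and 8.22 without SRC-3, against 8.11 and 7.38 in SRC-3 wild type (log2 fold change 0.68, limma adjusted p = 0.283). The groups did not overlap, but the wild-type replicates lay further apart than the nearest arrays of the groups, and the change passed without SRC-3 wild-type replicate 1 (log2 fold change 1.04, limma adjusted p = 0.0461). Slc16a6 passed after a new quantile normalization (−0.48, limma adjusted p = 0.0417).

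The comparisons share no array, so their signs could be set side by side. Of the 43 genes that passed without RORγt, 37 had the same sign without SRC-3, or 86%, with 19 of the 21 higher and 18 of the 22 lower genes. Of all 2157 genes that passed without RORγt, 1734 had the same sign, or 80.4%, so the solute carriers were close to the background. The median SRC-3 log2 fold change was 0.15 for the 21 higher genes and −0.13 for the 22 lower genes, beside RORγt medians of 0.37 and −0.38. Without SRC-3-deficient replicate 1, the array with the low Xist signal, the count stayed at 37. Leaving out any 1 of the 4 SRC-3 arrays gave 33 to 39 of 43, or 76.7% to 90.7%, beside 69.4% to 82.1% of all genes.

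**Figure D5:**
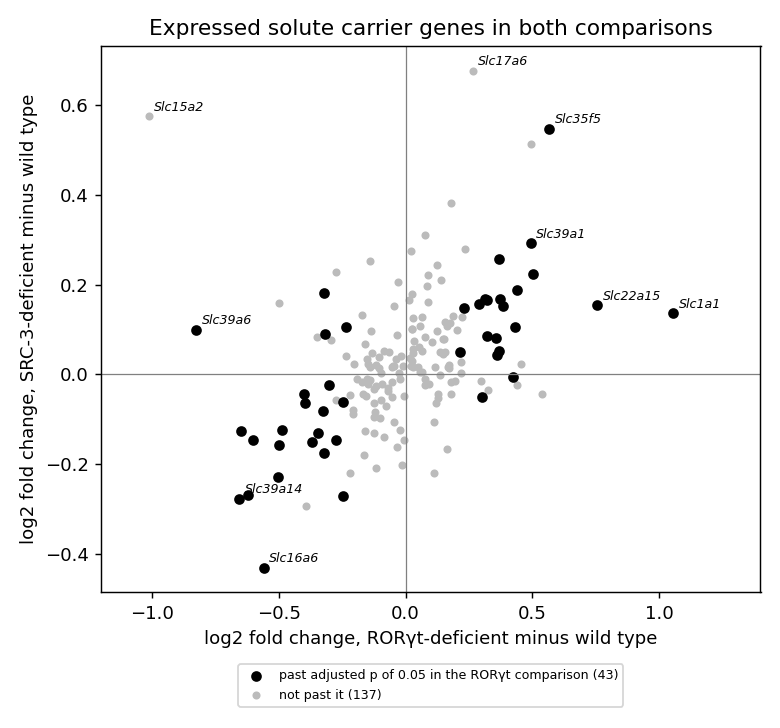
Log2 fold change of the 180 solute carrier genes, RORγt-deficient minus wild type (horizontal) against SRC-3-deficient minus wild type (vertical). Black points are the 43 genes past an adjusted p of 0.05 in the RORγt comparison and grey points the other 137, and Slc1a1, Slc22a15 and Slc39a6 lie far out horizontally with vertical values of 0.14, 0.15 and 0.10.

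The difference between the comparisons, RORγt effect minus SRC-3 effect, was tested in the same limma fit and passed for 3 of the 180 genes, 1.67%, beside 1.67% of all genes tested. They were Slc1a1, Slc22a15 and Slc39a6. Slc1a1 read 7.98 and 7.89 without SRC-3, against 7.76 and 7.846 in SRC-3 wild type. Its effects differed by 0.92 on the log2 scale (limma adjusted p = 0.0466). Slc1a1 lay below the level of 7.85 in both wild types, and it entered only through deficient arrays. Slc22a15 read 9.83 and 9.86 without SRC-3, against 9.67 and 9.71 in SRC-3 wild type, and its effects differed by 0.60 (0.0466). Slc39a6 read 10.34 and 10.30 without SRC-3, against 10.32 and 10.12 in SRC-3 wild type, and its effects differed by −0.93 (0.048). Slc22a17 and Slc22a13 came next, with differences of 0.43 and −0.41 that did not pass (limma adjusted p = 0.0575 and 0.0897). Slc1a1 missed the threshold without any 1 array other than RORγt-deficient replicate 1, Slc22a15 without any 1 of the 8, and Slc39a6 without any 1 other than RORγt-deficient replicate 2 or SRC-3 wild-type replicate 1, at limma adjusted p between 0.0559 and 0.203. All 3 also missed it with array weights, a new quantile normalization or no filter on low values (0.0504 to 0.075), and Slc39a6 with each array shifted to 1 median (0.054) or the stricter filter (0.0514). Slc25a45 passed only without SRC-3 wild-type replicate 1 (limma adjusted p = 0.0456), and Slc39a10 passed without SRC-3-deficient replicate 1 (0.033).

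Other transport genes were counted in the same fit. Of 31 measured carriers without an Slc symbol, 2 rose and 2 fell without RORγt, or 12.9% beside 19.4% of all genes tested. Sfxn3, a mitochondrial serine carrier, rose (11.49 and 11.63 without RORγt, against 11.12 and 11.20 in RORγt wild type, limma adjusted p = 0.0131), and Flvcr1, known for heme export and choline import, fell (10.53 and 10.55 without RORγt, against 10.81 and 10.95 in RORγt wild type, 0.0165). Cnnm3, of a family linked to magnesium, rose by 0.22 on the log2 scale (limma adjusted p = 0.0376). Of 25 ATP-driven ion pumps, 2 rose and 5 fell, or 28% beside 19.4% of all genes tested. Atp2b1, a plasma membrane calcium pump, had a 0.54 log2 fold change (limma adjusted p = 0.0104), and Atp1b3, a subunit of the sodium pump, one of 0.31 (0.0168). Of the 5 that fell, 4 belong to the vacuolar proton pump that acidifies lysosomes. They were Atp6ap1 (log2 fold change −0.26, limma adjusted p = 0.0185), Atp6v0a1 (−0.42, 0.0189), Atp6v0a2 (−0.22, 0.0319) and Atp6v1a (−0.35, 0.0387). The other was Atp2a2, a calcium pump of the endoplasmic reticulum (−0.25, 0.0224). Most measured genes of the vacuolar pump did not pass, with log2 fold changes of both signs, such as −0.16 for Atp6v1f and 0.12 for Atp6v0d1.

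Of 23 ABC transporters, 6 rose and 3 fell, or 39.1% beside 19.4% of all genes tested, with a median log2 fold change of 0.05. Abcg1, a cholesterol exporter, read 11.24 and 11.19 without RORγt, against 10.25 and 10.14 in RORγt wild type (log2 fold change 1.02, limma adjusted p = 0.000403). Abcc1, which exports glutathione conjugates and leukotriene C4, had a −0.56 log2 fold change (limma adjusted p = 0.00294), and Abcb6, a porphyrin transporter, one of −0.44 (0.00814). Of the 12 measured carriers that were left out by name, 8 fell and none rose, or 66.7% beside 19.4% of all genes tested. The median log2 fold change of the 12 was −0.34, in a set that was taken out with its values known. Slc15a3, Slc16a1 and Slc7a5 had the smallest p among them, with log2 fold changes of −1.88, −0.67 and −0.49 (limma adjusted p = 0.00136, 0.00192 and 0.00481). Without SRC-3, no gene of these 4 lists passed an adjusted p of 0.05.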

How the data were processed

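Each of the 8 RNA samples had 1 Affymetrix Mouse Gene 1.0 ST array. Per the submitters' processing notes, RMA in Expression Console (Affymetrix) made the deposited log2 signals, which were used as deposited; versions and genome build are not given in the sources used here. Of 35556 probe sets, the 21789 with 1 symbol in the platform table were used, the brightest per gene. A model of 4 group means on the 8 arrays was fitted in limma 3.58.1 under R 4.3.3 (lmFit, eBayes; 4 residual and 3.53 prior degrees of freedom), two-sided, with Benjamini-Hochberg adjustment over 11128 genes. The fit was tested on simulated data with larger changes than those of nearly all RORγt calls, so small changes were not covered. Genes, classes and lists were chosen with earlier results of these data known. Named genes were up to 15 per direction and comparison by size of change, up to 4 per class past the threshold by p, the brightest of each class, the 5 smallest p where under 5 passed and for the difference, up to 3 per other list, family members past the threshold in opposite directions, 3 genes on each side of the level, Ncoa3 and Xist. Genes named beyond this (Slc15a2, Slc39a4, Slc30a1, Slc46a1, Slc7a6, Slc24a3, Slc9a9 and Slc17a6, for example), and more than 3 pumps, were chosen after their values were seen. Alternatives varied normalization, filter, probe set, prior, weights, arrays, replicate block and X- and Y-linked genes. Leaving out SRC-3 arrays in the sign count was added after seeing the data. A gene that this rule would name is not reported here.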

Additional observations from a re-analysis of the deposited data

Results flagged for a closer look

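Of the 180 genes, 3 had effects that differed between the comparisons in a test of the difference itself, RORγt effect minus SRC-3 effect, in limma. The difference was 0.92 for Slc1a1 (limma adjusted p = 0.0466), with log2 fold changes of 1.06 without RORγt and 0.14 without SRC-3. It was 0.60 for Slc22a15 (0.0466), with 0.76 without RORγt and 0.15 without SRC-3. It was −0.93 for Slc39a6 (0.048), with −0.83 without RORγt and 0.10 without SRC-3. Slc1a1 lay below the level of 7.85 in both wild types, so it entered only through deficient arrays, where it was higher. Over the settings tried the adjusted p ran from 0.0122 to 0.189 for Slc1a1, 0.0189 to 0.189 for Slc22a15 and 0.00861 to 0.203 for Slc39a6, with the sign retained in each. The share of solute carrier genes with such a difference, 1.67%, equals that of all genes tested.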

How the results depend on the processing

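The 43 RORγt calls, 5 SRC-3 genes and 5 differences that were refitted kept their direction in every setting tried. Of 20 named genes that did not pass in the RORγt comparison, 5 changed sign without 1 RORγt array (Slc15a2, Slc22a13b, Slc30a1, Slc43a3 and Slco3a1). The number of solute carrier genes higher without RORγt was 21, and it was 35 with the 4 arrays of the comparison alone, 38 with array weights, 32 with the replicate block, 13 with the stricter filter, which leaves fewer genes, and 4 to 24 when 1 array was left out. The number lower was 22, and it was 37 with array weights, 13 with the stricter filter and 3 to 25 when 1 array was left out. Without SRC-3 the counts were 0, with 3 higher (Slc9b2, Slc17a6 and Slc35f5) and 1 lower (Slc16a6) with the replicate block, 1 lower (Slc16a6) with a new quantile normalization, and 0 to 1 higher (Slc17a6) when 1 array was left out. The number that differed between the comparisons was 3, and it was 0 with array weights, a new quantile normalization or no filter, 1 with the stricter filter, 15 with the replicate block and 0 to 2 when 1 array was left out. The number lower without RORγt was also above 22 with the 4 arrays of the comparison alone, at 31, and with the replicate block, at 32. Fits with 1 array fewer rest on fewer samples, and the cause of the other shifts was not tested. The replicate numbers pair the arrays only by number. Deviations of same-numbered arrays correlated with r = 0.54 in the SRC-3 groups and 0.00 in the RORγt groups, and under the block all 43 RORγt calls held. Of the 43, 11 were lost in some setting that keeps all 8 arrays, such as no filter.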
